A study of Homo sapiens with 9 samples.

Results

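The genes around NKX2-1 on chromosome 14 were examined in the window chr14:35800000-36300000 (hg18), 500 kb that hold MBIP, SFTA3, NKX2-1, NKX2-8 and PAX9. Its members were all peaks with at least 1 base in the window, in any of 5 deposited lists. They numbered 52 of the 125904 peaks of the lists together. The lists came from chromatin immunoprecipitation and sequencing (ChIP-seq) in lung adenocarcinoma cell lines in which, per the labels, NKX2-1 is amplified. NKX2-1 was precipitated with the Bethyl antibody BL4000 in NCI-H3122, with 2 lists called replicates 1 and 2 here, and in NCI-H1819 and NCI-H2087, with 1 list each. FOXA1 was precipitated with the Abcam antibody ab23738 in NCI-H3122 only, with 1 list. All cells grew in RPMI1640 medium with serum, were untreated as far as the labels say, and were fixed with formaldehyde. Nothing in the labels says that the H3122 replicates came from separate cultures. The window's NKX2-1 peaks numbered 5 of the 7469 in the list of H3122 replicate 1, 17 of 48071 in replicate 2, 9 of 13486 in H1819 and 6 of 14441 in H2087. FOXA1 had 15 of 42437 there. The lists differ in length, so these counts cannot be set against each other: among the 7469 highest-scoring peaks of each list the window held 5, 4, 6 and 3 NKX2-1 peaks in the same order and 4 FOXA1 peaks. No test over samples was possible with 1 library for each factor and line except that pair, so all comparisons here are descriptions of these lists.

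NKX2-1 (TTF-1) is a homeobox factor needed for lung and thyroid development and drives surfactant genes in alveolar type 2 cells. Its gene is a lineage oncogene gained in copy number in some lung adenocarcinomas, often together with its neighbours NKX2-8, another homeobox gene, and PAX9, a paired-box gene of pharyngeal and tooth development. MBIP encodes a protein first described as an inhibitor of a MAP kinase kinase kinase. SFTA3 is listed by RefSeq as a long noncoding RNA next to NKX2-1. FOXA1 is a forkhead pioneer factor that opens chromatin in endodermal tissues, the lung among them. A transcription factor that binds at its own gene can form an autoregulatory loop, and a ChIP-seq peak shows occupancy, not regulation.

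The 5 genes have the order MBIP, SFTA3, NKX2-1, NKX2-8 and PAX9 from low to high coordinates. In hg18 they were placed only by rounded positions, with MBIP from 35.84 to 35.86 Mb, NKX2-1 from 36.055 to 36.059 Mb, SFTA3 at 36.01 Mb, NKX2-8 at 36.12 Mb and PAX9 at 36.20 Mb. No annotation of hg18 was used, so peaks are not assigned to exons, introns or UTRs, and distances to genes other than NKX2-1 are good to about 10 kb. RefSeq (GRCh38.p14) lists 13 genes from MBIP to PAX9, the others being noncoding RNAs and pseudogenes. It places PAX9 on the forward strand and the other 4 genes on the reverse strand, so the start of NKX2-1 is at its upper end. SFTA3 overlaps NKX2-1 in RefSeq and spans 46269 bases there, so the position at 36.01 Mb stands for the end of the gene away from NKX2-1.

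NKX2-1 itself carried low-scoring NKX2-1 peaks in H3122 and H2087, and none in H1819 that touched the gene. The score that the authors deposited with each peak comes from the peak caller MACS and can be ranked only within a list. Its percentile gives the share of the list's peaks that scored lower, with ties at the mean rank. In H3122 replicate 2 a peak at chr14:36058152-36059477 spanned the upper end of the gene, with a score of 67.7 at percentile 9.02 of its list. In H2087 a peak at chr14:36058603-36058979 lay within it, with a score of 79.2 at percentile 21.0. FOXA1 had a peak at the same place in H3122, chr14:36058279-36059085, with a score of 85.1 at percentile 25.5. All 3 peaks ranked in the lower part of their lists. H3122 replicate 1 had no peak there but one just above the gene, at chr14:36059831-36060045, with a score of 66.0 at percentile 33.9. It lay 0.831 kb above the rounded end of NKX2-1 and 353 bases from the replicate 2 peak, so the H3122 replicates did not overlap at this gene.

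RefSeq gives NKX2-1 a pair of start sites that are 676 bases apart, and the rounded position of the gene does not tell which of them the peaks cover. The 250 bases before each start are shown because the H3122 replicate 2 and FOXA1 peaks cross the rounded upper end of the gene and the H2087 peak lies within the gene close to it. They come from RefSeq on build GRCh38.p14, reverse strand, are written 5′ to 3′, and end at the base before the start. Capitals mark matches to the searched letters, which are given after the sequences.
NKX2-1, upper start: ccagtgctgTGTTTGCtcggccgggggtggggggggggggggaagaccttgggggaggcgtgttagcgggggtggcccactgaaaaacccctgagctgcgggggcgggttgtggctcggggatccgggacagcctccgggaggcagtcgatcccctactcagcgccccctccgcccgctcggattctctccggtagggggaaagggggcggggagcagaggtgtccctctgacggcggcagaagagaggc
NKX2-1, lower start: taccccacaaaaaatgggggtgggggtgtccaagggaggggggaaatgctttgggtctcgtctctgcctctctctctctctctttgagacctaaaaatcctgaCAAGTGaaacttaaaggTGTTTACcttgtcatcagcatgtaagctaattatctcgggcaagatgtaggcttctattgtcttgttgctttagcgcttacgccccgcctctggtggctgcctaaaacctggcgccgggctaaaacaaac
The first belongs to the window chr14:36520183-36520482 and the second to chr14:36519507-36519806 (GRCh38.p14). RefSeq gives SFTA3 the second window too, so one start is listed for both genes. The letters searched on both strands were CTCAAG and CACTTG, which both hold CAAG, the core of sites for NKX2 factors, on 1 strand, and for forkhead factors the letters TGTTTAC, with the form TATTTAC, and further TGTTTGC, with the form TATTTGC; none of the matches overlapped another. The upper start had a forkhead match, TGTTTGC, whose first base lies 241 bases before the start, and no NKX match. The lower start had CACTTG on the other strand, read as CAAGTG here, 147 bases before it, and TGTTTAC 130 bases before it. A further CTCAAG lay 23 bases after it, outside the stretch shown. Over all 34796 distinct windows of 300 bases in the table, 21.7% held an NKX match, 12.1% a forkhead match and 3.07% both. Matches are descriptions of letters and show no binding.

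H1819 had its NKX2-1 peaks on both sides of the gene and not on it. Its highest-scoring peak of the window was at chr14:36068146-36068861, 9.15 kb above NKX2-1 and so upstream of it, with a score of 394 at percentile 87.6. A second peak followed at chr14:36076924-36077532, 17.9 kb above the gene, with a score of 240.5 at percentile 75.9. Neither place had a peak in any of the other 4 lists. On the other side H1819 had a peak at chr14:36038092-36038528, in no other list, with a score of 79.8, and one at chr14:36052636-36053043 with a score of 81.1. The latter overlapped a wider H2087 peak at chr14:36052128-36053094, which was the highest-scoring of the window in that line at 227 and percentile 65.3. This region, 1.91 kb below NKX2-1 on the side where SFTA3 extends in RefSeq, was the one place in the window shared by H1819 and H2087 without H3122. Such regions made up 258 of the 77792 merged regions of all 5 lists. RefSeq lists a further start of SFTA3 below those of NKX2-1, in the window chr14:36513486-36513785 (GRCh38.p14, reverse strand). That window had a CTCAAG 126 bases before the start, and 21.7% of all windows held an NKX match. Its place in hg18 was not determined, so the shared H1819 and H2087 region may lie at that SFTA3 start.

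Within 10 kb of NKX2-1 each H3122 replicate had 1 NKX2-1 peak, while H1819 had 2, as did H2087. FOXA1 had 1. At 20 kb the H1819 count was 4 and the others were the same. No 2 of the 3 lines had the same set of NKX2-1 peaks around the gene. The region that spans its upper end was shared by H3122 replicate 2 and H2087, the region below it by H1819 and H2087, and the pair upstream was in H1819 alone. The H3122 replicates did not overlap at the gene either. Over the genome 4.61% of merged NKX2-1 regions were in all 3 lines and 23.3% in at least 2, so differing sets are common in these lists.

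**Figure D1:**
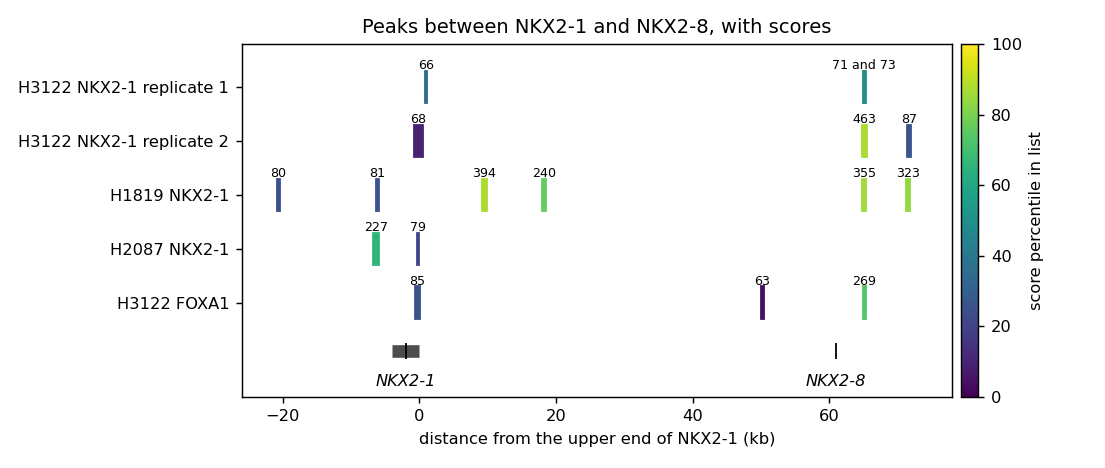
Peaks near NKX2-1 and NKX2-8, drawn to scale against the distance from the upper end of NKX2-1 in kb, with 1 row for each list, the score above each peak and the colour giving its percentile within the list. Gray marks the genes at their rounded positions. The peaks at or just above NKX2-1 lie at percentiles 9.02 to 33.9 of their lists, and the H1819 peaks upstream of it at 87.6 and 75.9 of theirs.

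MBIP, the lowest of the 5 genes, had the only region of the window with NKX2-1 peaks in all 3 lines, and it had them in all 4 lists. The region chr14:35858859-35860048 covers the rounded upper end of the gene, which is good to about 10 kb, and RefSeq places MBIP on the reverse strand. Scores were 117 in H3122 replicate 1, 510 in replicate 2, 233 in H1819 and 225 in H2087, at percentiles 83.2, 89.4, 75.0 and 65.1. The peak thus ranked in the upper part of every NKX2-1 list. FOXA1 had no peak there. The 537 bases shared by the H1819 and H2087 peaks contain the whole H3122 replicate 1 peak, which is 265 bases wide. The 250 bases before the RefSeq start of MBIP (from the window chr14:36320588-36320887, GRCh38.p14, reverse strand) are shown because all 4 lists have a peak at the rounded upper end of the gene.
MBIP: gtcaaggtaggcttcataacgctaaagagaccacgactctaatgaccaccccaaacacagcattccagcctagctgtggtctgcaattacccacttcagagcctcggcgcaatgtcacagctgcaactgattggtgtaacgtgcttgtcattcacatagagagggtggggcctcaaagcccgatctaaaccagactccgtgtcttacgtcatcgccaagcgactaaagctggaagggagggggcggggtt
This window held neither an NKX nor a forkhead match to the searched letters, also in the 50 bases after the start. That says only that these letters are not in it.

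A second region at MBIP, chr14:35854880-35855525, was shared by H3122 replicate 2 and H2087. It scored 464 at percentile 87.7 in H3122 and 64.4 at percentile 6.45 in H2087, so it ranked in the upper part of the first list and near the bottom of the second. Replicate 2 also had a peak at the lower end of the gene with a score of 126, found in no other list. FOXA1 had a low-scoring peak within MBIP, at chr14:35844388-35844762 with a score of 71.2, and a stronger one below it, at chr14:35832768-35833234 with a score of 440.1 at percentile 83.8. No NKX2-1 list had a peak at either. The NKX2-1 and FOXA1 peaks at MBIP therefore lay at different places.

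The highest-scoring peaks of H3122 in the window lay below MBIP, at chr14:35807585-35808851, 31.1 kb from the gene. The score was 299 in replicate 1 and 1147 in replicate 2, at percentiles 98.5 and 97.5 of the lists, and FOXA1 scored 1163 at percentile 96.1. H1819 and H2087 had no peak there. This was the strongest region of all 3 H3122 lists in the window and the only one in which NKX2-1 reached the upper 10% of a list. Between MBIP and SFTA3, replicate 2, H1819 and FOXA1 shared chr14:35922365-35923361. It scored 213 at percentile 67.8 in H3122, 371 at percentile 86.3 in H1819 and 554 at percentile 87.7 for FOXA1. FOXA1 was thus found at a place that NKX2-1 occupied in both H3122 and H1819, although FOXA1 was not measured in H1819. From there to the SFTA3 position the H3122 NKX2-1 lists had no further peak. The single peak within 10 kb of that position was in replicate 2, at chr14:36017678-36018257 with a score of 198. FOXA1 had a peak 11.2 kb on the other side of that position, with a score of 125, in no NKX2-1 list. The position marks only the end of SFTA3 away from NKX2-1. SFTA3 reaches NKX2-1 in RefSeq, and its listed starts lie at that end, among them the start it shares with NKX2-1. Peaks named above between the position and NKX2-1, or at NKX2-1, may thus also lie in SFTA3 or at its starts. The count near the position leaves them out.

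Next to NKX2-8 was a region that 4 of the 5 lists shared and H2087 lacked, chr14:36123773-36124567. Replicate 1 had 2 peaks there, 3 bases apart, with scores of 70.8 and 72.9. Replicate 2 scored 463 at percentile 87.6, H1819 scored 355 at percentile 85.6 and FOXA1 scored 269 at percentile 72.8. The region lay 3.77 kb above the rounded position of NKX2-8, less than the 10 kb to which that position is known. Its side of the gene thus cannot be told from that position, and RefSeq positions were not carried over to hg18. The next region, chr14:36130186-36130955, was shared by replicate 2 and H1819 without FOXA1. It had a score of 323 at percentile 83.7 of the H1819 list and of 87.4 at percentile 25.8 of the replicate 2 list. In H2087 the closest NKX2-1 peak to NKX2-8 was 38.6 kb away, at chr14:36158603-36159237 with a score of 209. That peak was in no other list.

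PAX9 had NKX2-1 peaks in H3122 replicate 2 and H2087, and a FOXA1 peak that overlapped only the first. The region, chr14:36200383-36201815, lies at the rounded position of the gene. NKX2-1 scored 109.6 at percentile 38.6 in H3122 and 109 at percentile 36.1 in H2087, somewhat below the middle of both lists. The FOXA1 peak scored 381 at percentile 81.0, and its midpoint coincided with that of replicate 2 (0 bases apart), while it shared 0 bases with the H2087 peak. Below PAX9, replicate 2 and H1819 shared the region chr14:36186681-36187801, with scores of 127 and 66.6 and only 147 bases in common. RefSeq lists 2 start windows for PAX9. One had a forkhead match, 78 bases before the start, and the other an NKX match, 38 bases after it.

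The upper 100 kb of the window, from the PAX9 position on, held 6 of the 15 FOXA1 peaks. For NKX2-1 there were 4 of 17 in replicate 2, 1 of 6 in H2087 and 0 in H1819 and replicate 1. This stretch was chosen after the peaks were seen. Its highest-ranked FOXA1 peak was at chr14:36256221-36256787 with a score of 738 at percentile 91.6, where replicate 2 scored 102 at percentile 34.7. At chr14:36289914-36290747 FOXA1 stood at percentile 78.1 of its list and replicate 2 at 2.35. At chr14:36296445-36297547 FOXA1 stood at percentile 22.9 and replicate 2 at 79.6. The pair thus stood on opposite sides of the middle of their lists at each of these places. FOXA1 ranked higher at all but the last, where replicate 2 did.

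**Figure D2:**
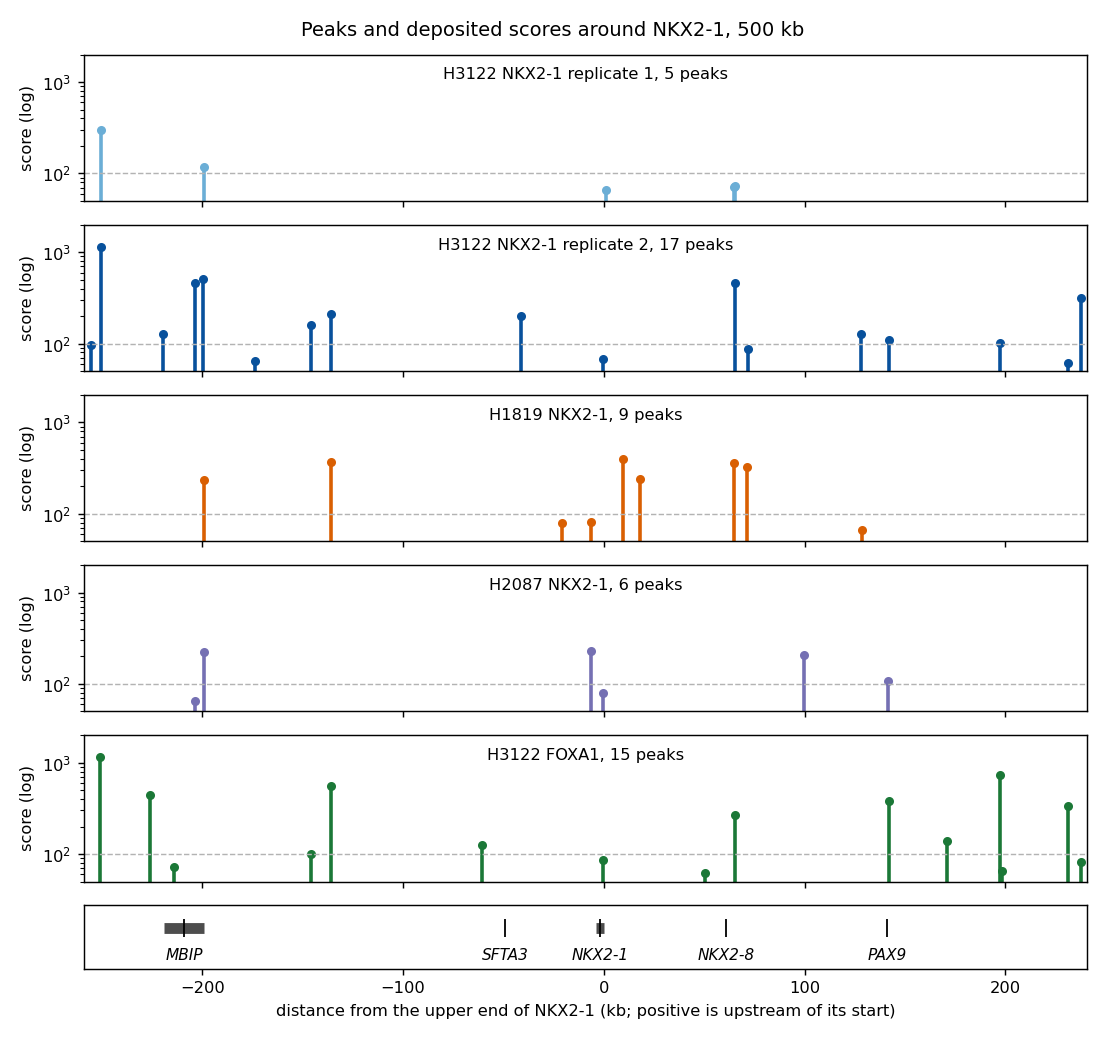
Deposited score of each peak on a log axis against the distance of its midpoint from the upper end of NKX2-1 in kb, with 1 panel for each list and the rounded gene positions below. The dashed line marks a score of 100, and scores can be ranked only within a panel. The highest point of each H3122 panel, 299 and 1147 for the NKX2-1 replicates and 1163 for FOXA1, lies near the left end, below MBIP.

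Merging all overlapping peaks gave 29 regions in the window, of which 23 held NKX2-1 and 6 held FOXA1 alone. When H3122 counted as occupied with a peak in either list, 10 of the 23 were in H3122 only, or 43.5% (exact 95% binomial interval 23.2 to 65.5), against 59.4% of all 59685 merged NKX2-1 regions of the genome. H1819 alone had 3, against 10.0% of the genome's regions, and H2087 alone had 1, against 7.27%. H3122 and H1819 without H2087 shared 4, against 7.16%, and H3122 and H2087 without H1819 shared 3, against 11.1%. The intervals of these counts take in the genome's shares. The region in H1819 and H2087 without H3122 was 1 of 23, or 4.35% (0.110 to 21.9), against 0.431%, which also lies within its interval. The region in all 3 lines was likewise 1 of 23, near the 4.61% of the genome's regions. Over the genome 1.61% of them were in all 4 lists, as that region was. Regions in 2 lines or more were 9 of 23, or 39.1% (19.7 to 61.5), and the interval takes in the genome's 23.3%. Regions in H1819 or H2087 without H3122 were 5 of 23, against 17.7% in the genome. A FOXA1 peak lay on 9 of 23, or 39.1%, against 39.7%. These intervals cover counting error only, and peaks are not replicates. Without replicate 1 the number of merged NKX2-1 regions was 22, and without replicate 2 it was 15.

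Each NKX2-1 list shared some of its peaks with another line. In replicate 1 this was so for 3 of 5 peaks, against 42.6% of the whole list, and in replicate 2 for 8 of 17, against 28.9%. In H1819 it was so for 6 of 9 peaks, against 55.7%, and in H2087 for 5 of 6, against 69.9%. The replicate 1 peaks were found in replicate 2 in 4 of 5 cases (80.0%, 28.4 to 99.5), against 81.7% of that list. The exception was the peak just above NKX2-1. In the other direction 3 of 17 replicate 2 peaks were in replicate 1, against 12.5% of the list. By pair of lines, 5 of 17 replicate 2 peaks were in H1819, against 14.7% of the list. H1819 peaks lay in replicate 2 in 5 of 9 cases, against 53.4%, in replicate 1 in 2 of 9, against 13.9%, and in H2087 in 2 of 9, against 22.8%. H2087 peaks lay in replicate 2 in 4 of 6 cases, against 67.7%, in replicate 1 in 1 of 6, against 15.1%, and in H1819 in 2 of 6, against 21.0%. Replicate 1 peaks lay in H1819 in 3 of 5 cases, against 25.4%, and in H2087 in 1 of 5, against 29.9%. The exact binomial interval of each of these shares takes in the share of the whole list.

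**Figure D3:**
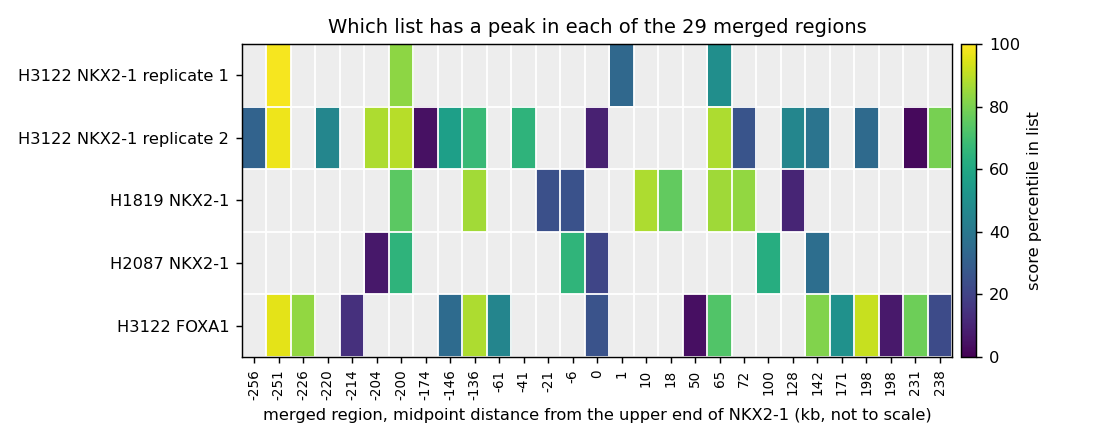
The 29 merged regions of the window in genomic order (columns, labelled with the distance of their midpoint from the upper end of NKX2-1 in kb) against the 5 lists (rows). Colour gives the percentile of the score within the list, gray stands for no peak, and where a list has 2 peaks in a region the higher is drawn. Only the column at -200, at the rounded upper end of MBIP, is filled in all 4 NKX2-1 rows.

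FOXA1 and H3122 NKX2-1 met at 9 regions of the window, among them NKX2-1 itself, the region next to NKX2-8, PAX9 and the strongest region below MBIP. Of the 17 replicate 2 peaks, 9 overlapped a FOXA1 peak, or 52.9% (27.8 to 77.0), against 47.8% of the whole list. Of the 15 FOXA1 peaks, 9 overlapped an H3122 NKX2-1 peak, or 60% (32.3 to 83.7), against 54.7%. Without replicate 2 the latter count was 2 of 15, against 8.72% of the list, and without replicate 1 it was the same 9. Replicate 1 shared 3 of its 5 peaks with FOXA1, against 50.3%. Of the 9 H1819 peaks, 2 lay on an H3122 FOXA1 peak, against 28.7%, as did 1 of the 6 H2087 peaks, against 31.6%. The H2087 peak was the one within NKX2-1. At shared places the midpoints of the replicate 2 and FOXA1 peaks were 0 to 184.5 bases apart, with a median of 68.0 over 9 pairs. The replicate 2 peaks of the window had a median width of 795 bases. These pairs were chosen for overlapping, which by itself keeps midpoints close, and no such distance over the genome is given here.

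FOXA1 peaks that overlapped replicate 2 scored from 81.55 to 1163, with a median of 333, and the 6 that did not scored from 62.7 to 440.1, with a median of 98.3. Over the whole list these medians were 207 and 99.7. For NKX2-1 replicate 2 the scores ran from 62.0 to 1147 with FOXA1 (median 159) and from 63.6 to 510 without it (median 126), and the second range lies within the first. Over the whole list the medians were 197 and 108. The region at MBIP in all 4 NKX2-1 lists is the highest of those without FOXA1.

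The window was denser in peaks than the average of the genome in every list. It held 4.12 times the mean density of the list in H3122 replicate 1 (exact binomial interval 1.34 to 9.62), 2.18 times in replicate 2 (1.27 to 3.49), 4.11 times in H1819 (1.88 to 7.80) and 2.56 times in H2087 (0.940 to 5.57). The H2087 interval includes 1. For FOXA1 it was 2.18 times (1.22 to 3.59). Chromosome 14 as a whole stood at 0.969 to 1.09 times the mean, with assembly gaps counted in all lengths. Its share of gaps was not set against that of the genome. Of 6146 consecutive windows of 500 kb, 95.9%, 89.3%, 96.3%, 85.3% and 89.3% held fewer peaks in replicate 1, replicate 2, H1819, H2087 and FOXA1. Windows in gaps were not left out, and windows with 0 peaks numbered 2733, 943, 2167, 2821 and 918 in the same order. Windows with more peaks than this one numbered 130, 553, 150, 702 and 537 in the same order, and the densest held 15, 49, 24, 31 and 48 peaks. The lists hold no measure of copy number, and neither the reach of the amplification nor the input used for each list is given in the sources used here, so more copies of the locus and more binding cannot be told apart.

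**Figure D4:**
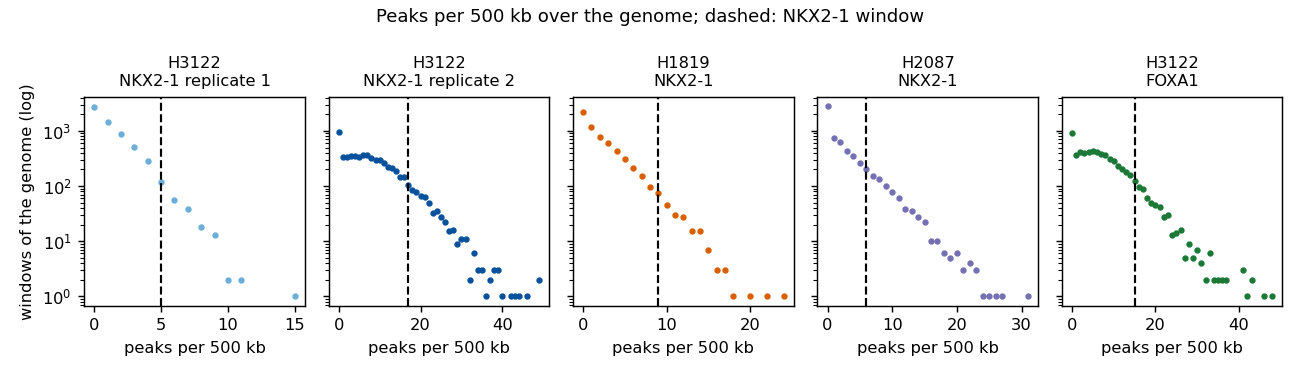
Number of consecutive 500 kb windows of the genome (log axis) against the peaks each holds, with 1 panel for each list. The dashed line marks the window around NKX2-1, at 5, 17, 9, 6 and 15 peaks; it lies to the right of most windows in every list and to the left of the densest.

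Peaks in the flanking 500 kb were counted by their midpoints, a rule that left the window's own counts the same. Below the window, replicate 1 had 5 NKX2-1 peaks, replicate 2 had 19, H2087 had 2 and H1819 had 0. FOXA1 had 16. Above it, NKX2-1 had 2 peaks in replicate 1, 21 in replicate 2, 6 in the H1819 list and 3 in the H2087 list. FOXA1 had 15 on that side. In H3122 the window thus held no more replicate 2 or FOXA1 peaks than its flanks, while H1819 had 9 in the window and none for 590.8 kb below it. At the edges, the outermost replicate 2 peak inside was 2.91 kb from the lower limit with a score of 96.7, and the first outside was 21.6 kb beyond it with a score of 333. At the upper limit the peaks inside and outside were 2.45 and 6.20 kb away, with scores of 319 and 168.

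The scores of the window's peaks ranged widely within their lists. The median percentile of the score was 49.3 in replicate 1, where the 5 peaks ran from 33.9 to 98.5, too few for a 95% interval. It was 46.0 in replicate 2 (95% interval of the median from ranked values 31.7 to 79.6), 75.9 in H1819 (24.5 to 86.3), 49.2 in H2087 (6.45 to 65.3) and 50.6 for FOXA1 (22.9 to 83.8). All of these intervals and the replicate 1 range overlap, and each takes in percentile 50, the middle of a list by construction. Long stretches had no peak. The longest in replicate 1 was 200.2 kb, from the rounded upper end of MBIP to the peak just above NKX2-1. In H2087 it was 193 kb, from the same end of MBIP to the region just below NKX2-1. The longest were 95.1 kb in replicate 2 and 115 kb in H1819, both above the region shared with FOXA1 between MBIP and SFTA3.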

How the data were processed

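Per the submitters' processing notes, Bowtie, MACS 1.4.0 and the build hg18 were used to make the lists. Each deposited list gives the position of a peak and a score, the authors' own value, used only to rank peaks within a list. Peaks were called on single libraries, since the labels tie each list to 1 library. The 4 input libraries were not analysed here, and which of them served as control, and at what threshold, is not stated. Read depth is unknown, and the number of peaks limits the precision.

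Peaks counted as shared with an overlap of at least 1 bp, and merged regions join such peaks. Intervals are exact Clopper-Pearson 95% intervals for counting error. Density is relative to the list's mean over the assembled hg18 chromosomes, assembly gaps included (lengths from GenomeInfoDb 1.38.1 in R 4.3.3). Python 3.11.15, pandas 2.3.3, numpy 2.4.6, scipy 1.17.1 and matplotlib 3.10.9 were used. The overlap code was tested on simulated data. Promoter windows came from RefSeq by symbol, with 5 of 5 genes matched. The text names regions within 10 kb of a gene position, regions in 2 lines or more and the 3 highest peaks of each list; others were named after their values were seen. The window, its genes and these lists were chosen with earlier results of these data known. Alternatives changed the score limit, list length, overlap, merging, window and replicates.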

Additional observations from a re-analysis of the deposited data

How the results depend on the processing

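Of 98 alternatives over 30 results, 77 left the value within its interval (for counts, within 1.5 times) and 21 moved it. Reversals were not scored. The intervals are wide, so this says little about stability. At scores of at least 100 replicate 1 kept 2 peaks in the window, and 2 of 2 (100%) were in replicate 2; its density became 6.87 times the mean. Near NKX2-1 that limit left 0 peaks in both H3122 replicates and for FOXA1, and 1 each in H1819 and H2087. With the 7469 highest-scoring peaks of each list the window held 5 in replicate 1, 4 in replicate 2, 6 in H1819, 3 in H2087 and 4 for FOXA1, and 11 merged NKX2-1 regions. H1819 then had the most peaks, where replicate 2 has the most in the lists as deposited (17, against 9 in H1819). Near NKX2-1 there were then 0 in replicate 2 and for FOXA1 and 1 each in replicate 1, H1819 and H2087. The replicate 1 list is not cut at this length. Of the 4 replicate 2 peaks 25% overlapped FOXA1, and of the 4 FOXA1 peaks 25% overlapped NKX2-1 in H3122. Shares over the whole lists were not computed at this length or at the score limit. These 25% and the 100% above thus have no share to stand against. For H1819 there was 1 peak within 5 kb and 4 within 20 kb. Leaving out an H3122 replicate gave 15 to 22 merged regions and 13.3% to 60% of FOXA1 peaks with NKX2-1. A list cut to 7469 peaks keeps only its highest-scoring ones, so peaks of the window below the cut drop out by construction. Cuts to the same length made without regard to score were not run. No paired analysis was possible because only H3122 NKX2-1 has more than 1 list and no result comes from a test.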
